A study of Mus musculus with 12 samples.

Results

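Of 56748 rows in the gene count table, 51 were protein-coding genes whose names begin with Psma, Psmb, Psmc, Psmd, Psme, Psmf or Psmg followed by a digit. These are the genes of the proteasome, its regulators and its assembly factors, and Psmb8, Psmb9 and Psmb10, the subunits of the immunoproteasome, were kept apart from the rest. The rule went by name and annotated gene type and used no measured value, but it was set with earlier results of these data known. By role the members were 8 alpha subunits and 11 beta subunits of the core particle (3 constitutive catalytic, 3 immunoproteasome and 5 other), 17 subunits of the regulatory particle (6 ATPases and 11 non-ATPases), 3 assembly chaperones of the regulatory particle, 5 activators, 1 inhibitor and 4 assembly chaperones of the core. The name rule also took Psmc3ip and Psme3ip1, which do not encode proteasome subunits. A further 5 rows with such names carried another gene type and held 675 counts in all 12 libraries together.

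RNA with a poly(A) tail was sequenced from left ventricles of wild-type C57BL/6J mice, 12 libraries in 3 groups of 4, all collected 14 days after surgery. Every mouse had received an AAV9 vector by the tail vein. The sham group had the AAV9 control vector and sham surgery. The control infarction group had the AAV9 control vector and ligation of the left anterior descending coronary artery, and the Irx3 infarction group had the AAV9-Irx3 vector and the same ligation. Irx3 encodes an Iroquois homeobox transcription factor. A group with the Irx3 vector and sham surgery was not part of the design, and vectors were compared in infarcted hearts alone. For the vector's promoter and the mice's age and sex no source used here gave a value. The labels name cardiomyocytes as the cell type, but markers of fibroblasts, endothelium, leukocytes and smooth muscle were all read in the sham libraries, so the libraries are described here as those of the entire ventricle. In such bulk tissue, fewer cells of a type and less RNA per cell cannot be told apart. The labels do not say whether each library came from a separate mouse, so p-values measure only the spread between these libraries.

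The proteasome degrades proteins that carry ubiquitin chains. Its core is a barrel of stacked rings, with alpha subunits outside and beta subunits inside, and only PSMB5, PSMB6 and PSMB7 among the constitutive beta subunits carry active sites. A regulatory particle binds the ubiquitin chain, removes it, and unfolds the substrate with a ring of ATPases. Under interferon gamma, PSMB8, PSMB9 and PSMB10 take the places of PSMB5, PSMB6 and PSMB7 in newly built particles, and the resulting immunoproteasome cuts peptides suited to MHC class I. In heart muscle the system turns over sarcomere proteins, many of them marked by muscle ubiquitin ligases.

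Total counts ran from 13352604 to 19236721 per library, and the members took 0.303% to 0.404% of them. Irx3 itself was at 24.5 ± 2.65 CPM (read counts per library size, TMM-scaled, mean ± SD, n = 4) in sham, 23.1 ± 6.89 in control infarction and 393 ± 111 in Irx3 infarction hearts. A gene counted as called when its p in edgeR's quasi-likelihood test, adjusted by Benjamini-Hochberg, was under 0.05 over the 15742 genes that passed the low-count filter, and every adjusted p below is of that kind unless an exact test is named. Of the 51 members 49 passed the filter. Psma8, the alpha subunit of the testis, and Psmb11, the beta subunit of the thymus cortex, did not: Psma8 reached at most 0.983 CPM in any library, and Psmb11 had counts in 1 library only. Mitochondrially encoded genes took 4.5% to 8.22% of counts in sham, 0.926% to 5.64% in control infarction and 10.4% to 19.01% in Irx3 infarction libraries. The 4 control infarction libraries serve in both the comparison with sham and that between vectors. Replicate 4 of both infarcted groups stood apart: among the 16 members with the lowest GC content, control infarction replicate 4 was the lowest library in 15 and Irx3 infarction replicate 4 the highest in 14. Their marker sums were also at opposite ends, with fibroblast markers at 25535 CPM in the former and 2569 CPM in the latter. Counts of calls are therefore also given without both.

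The promoters of the catalytic pairs with a known promoter for both partners are shown because the inducible and the constitutive member of a pair moved differently in the results below. They are RefSeq promoters on GRCm38.p6, 250 bases before to 50 after the start site, read 5′ to 3′ in the direction of the gene. RefSeq held such a window for 43 of the 51 members. Capitals mark a match to a searched motif. Psmb8 lies at chr17:34197945-34198244 (plus strand), with the gamma activated sequence TTCNNNGAA in capitals, an element of interferon-responsive genes. Psmb5 lies at chr14:54617946-54618245 (minus strand), with the antioxidant response element core TGACNNNGC in capitals, a sequence that NRF1 and NRF2 bind. Psmb9 lies at chr17:34187281-34187580 (minus strand), with ATTGG in capitals, which is the CCAAT box read on the other strand. Psmb6 lies at chr11:70525107-70525406 (plus strand), with TGACNNNGC in capitals.
Psmb8: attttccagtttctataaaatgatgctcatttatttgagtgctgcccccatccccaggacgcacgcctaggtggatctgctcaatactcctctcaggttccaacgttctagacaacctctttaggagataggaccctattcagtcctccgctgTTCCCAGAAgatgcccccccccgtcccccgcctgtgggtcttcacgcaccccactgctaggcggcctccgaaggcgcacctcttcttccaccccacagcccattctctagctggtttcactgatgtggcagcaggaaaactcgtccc
Psmb5: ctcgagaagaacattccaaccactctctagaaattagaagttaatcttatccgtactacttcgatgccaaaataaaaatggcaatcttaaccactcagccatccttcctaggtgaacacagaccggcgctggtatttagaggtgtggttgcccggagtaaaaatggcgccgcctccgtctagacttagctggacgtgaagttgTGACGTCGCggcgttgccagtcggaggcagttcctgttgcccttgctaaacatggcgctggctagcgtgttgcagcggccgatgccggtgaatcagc
Psmb9: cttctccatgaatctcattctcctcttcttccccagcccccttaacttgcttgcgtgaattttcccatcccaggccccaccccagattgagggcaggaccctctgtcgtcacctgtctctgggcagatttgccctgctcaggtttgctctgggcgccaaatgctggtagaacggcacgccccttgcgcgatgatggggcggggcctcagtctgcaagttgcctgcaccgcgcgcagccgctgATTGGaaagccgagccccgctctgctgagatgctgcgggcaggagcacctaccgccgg
Psmb6: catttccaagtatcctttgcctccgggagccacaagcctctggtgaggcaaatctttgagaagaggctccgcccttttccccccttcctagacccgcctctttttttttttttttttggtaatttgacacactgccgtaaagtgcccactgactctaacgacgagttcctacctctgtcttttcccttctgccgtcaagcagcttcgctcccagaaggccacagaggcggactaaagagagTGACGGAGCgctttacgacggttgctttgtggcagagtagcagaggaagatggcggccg

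Both constitutive promoters of these pairs held the antioxidant response element core and neither inducible one did. Of the pair not shown, the Psmb10 window held no match to any searched motif, and Psmb7 had no window. Among all members the core stood in 6 of 43 windows, those of Psmb5, Psmb6, Psmc6, Psmd12, Psmd9 and Psme4, or 14.0%, beside 12.4% of all 32851 promoters in the table. The gamma activated sequence was found in Psmb8, Psmd2 and Psmg1, 7.0% of members beside 8.3% of all promoters. Psmd2 and Psmg1 were called lower after infarction, as given below. The interferon stimulated response element core, GAAA followed by any 2 bases and GAAA, stood in 5 members, Psmb3, Psmd4, Psmd9, Psme1 and Psmg4, which is 11.6% beside 3.44% of all promoters. CCAAT was present in 16 members, 37.2% beside 37.4%. All motifs were searched on both strands, and no matches of different motifs overlapped in a member. A match is a description of the letters in the window, not a site shown to be bound. The Psmb9 window shares 275 bases with that of Tap1, the peptide transporter gene read in the opposite direction.

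After infarction under the control vector, the 3 immunoproteasome genes rose 2.58-fold to 5.23-fold while the constitutive catalytic subunits were lower or not called. Psmb8 encodes the inducible counterpart of PSMB5. It stood at 11.8, 12.6, 9.90 and 9.80 CPM in sham replicates 1 to 4 and at 46.6, 33.7, 64.5 and 57.3 CPM in control infarction replicates 1 to 4. All infarcted hearts lay above all sham hearts, and the lowest of them, replicate 2, was still well above the highest sham value. The rise was 4.58-fold, a log2 fold change of 2.19 (SE 0.22, adjusted p = 1.97e-05). Psmb9, the inducible counterpart of PSMB6, had 9.62, 9.36, 9.08 and 6.74 CPM in sham and 48.3, 31.0, 57.0 and 45.7 CPM in control infarction hearts. The groups did not overlap, and replicate 2 was again the lowest infarcted heart. Psmb9 rose 5.23-fold (log2 fold change 2.39, SE 0.29, adjusted p = 5.30e-05). Psmb10, which replaces PSMB7, had 54.4, 72.5, 64.8 and 57.5 CPM in sham and 156, 113, 234 and 140.4 CPM in control infarction hearts. Here too the groups were apart, with replicate 3 far above the other infarcted hearts. Its rise was 2.58-fold (log2 fold change 1.37, SE 0.23, adjusted p = 3.79e-04). All 3 calls held with each of the 12 libraries left out in turn.

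**Figure D1:**
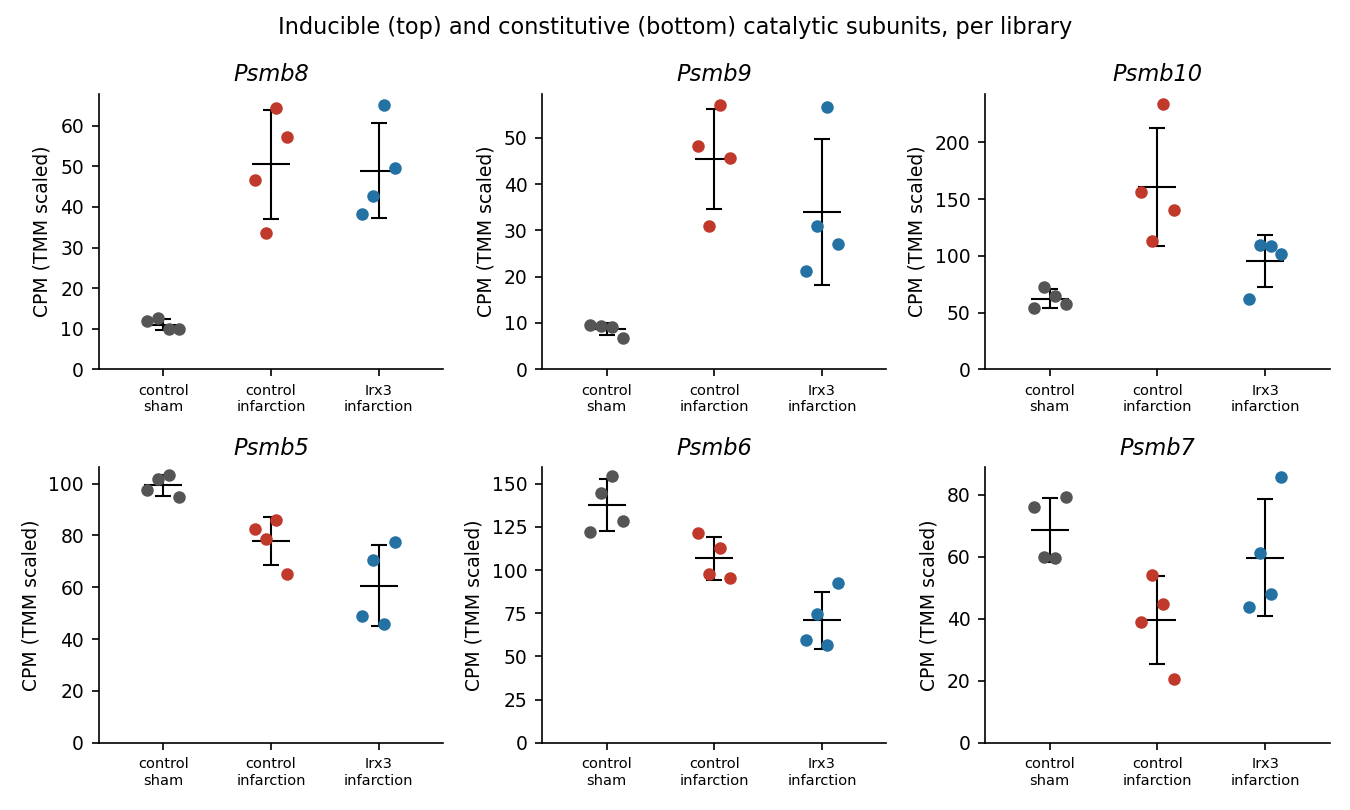
TMM-scaled CPM of the 3 inducible (top) and 3 constitutive (bottom) catalytic subunits on linear axes from 0, 1 point per library, with bars for the mean ± SD of 4 libraries. Psmb8, Psmb9 and Psmb10 lie higher in every control infarction library than in every sham library, and Psmb5, Psmb6 and Psmb7 lie lower.

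Of the constitutive active-site genes Psmb7 fell, while Psmb5 and Psmb6 lay lower without passing the test. Psmb7 encodes the trypsin-like subunit. It had 76.0, 59.9, 59.7 and 79.3 CPM in sham and 38.9, 54.2, 44.6 and 20.5 CPM in control infarction hearts, with replicate 4 of the latter the lowest of all 12 libraries. Psmb7 fell 1.74-fold (log2 fold change -0.80, SE 0.27, adjusted p = 0.0244), a call lost without sham replicate 1 (adjusted p = 0.0586) or sham replicate 4 (adjusted p = 0.0654). Psmb5, the chymotrypsin-like subunit, had 97.6, 102, 103 and 94.7 CPM in sham and 82.7, 78.5, 85.9 and 64.9 CPM in control infarction hearts. Its groups did not overlap, yet the log2 fold change of -0.35 (SE 0.16) missed the threshold (adjusted p = 0.0898). Psmb6, the caspase-like subunit, read 122, 145, 155 and 128 CPM in sham and 122, 97.5, 113 and 95.3 CPM in control infarction hearts. The groups touched without overlapping, with infarction replicate 1 and sham replicate 1 almost equal, and the log2 fold change of -0.36 (SE 0.16, adjusted p = 0.0716) was not called. Psmb5 passed the threshold without control infarction replicate 3 or without any of Irx3 infarction replicates 1, 2 and 3 (adjusted p 0.0270 to 0.0496). Psmb6 passed it without control infarction replicate 1 or without any 1 of the 4 Irx3 infarction libraries (adjusted p 0.0263 to 0.0430). Some of these fits also moved the median over all genes, as given below.

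Within each library the ratio of an inducible subunit to the one it replaces needs no scaling between libraries. The log2 ratio of Psmb8 to Psmb5 counts was -3.04, -3.01, -3.38 and -3.27 in sham and -0.83, -1.22, -0.41 and -0.18 in control infarction hearts. Every infarcted heart stood above every sham heart, and the means differed by 2.52, or 5.72-fold. The Psmb9 to Psmb6 ratio was -3.66, -3.95, -4.09 and -4.24 in sham and -1.33, -1.65, -0.98 and -1.06 in control infarction hearts, a difference of 2.73 or 6.63-fold. For Psmb10 to Psmb7 it was -0.48, 0.27, 0.12 and -0.46 in sham and 2.0, 1.06, 2.39 and 2.77 in control infarction hearts, a difference of 2.19 or 4.58-fold. None of the 3 pairs overlapped between these groups. Each gave the smallest p that 70 assignments of 4 against 4 allow in a two-sided exact permutation test (p = 0.0286), which became 0.0514 after Benjamini-Hochberg adjustment over 9 such tests and so missed 0.05.

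Scaled by transcript length, Psmb8 made up 5.77% ± 0.671 (SD, n = 4) of Psmb8 and Psmb5 together in sham and 26.2% ± 6.01 in control infarction hearts. Psmb9 made up 3.62% ± 0.619 of its pair in sham and 19.97% ± 3.25 in control infarction. Psmb10 was already 44.6% ± 6.67 of its pair in sham and reached 77.7% ± 9.17 in control infarction hearts. On this RNA scale Psmb5 and Psmb6 therefore stayed above their inducible partners in every control infarction heart, and Psmb7 stood below Psmb10 in every one.

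**Figure D2:**
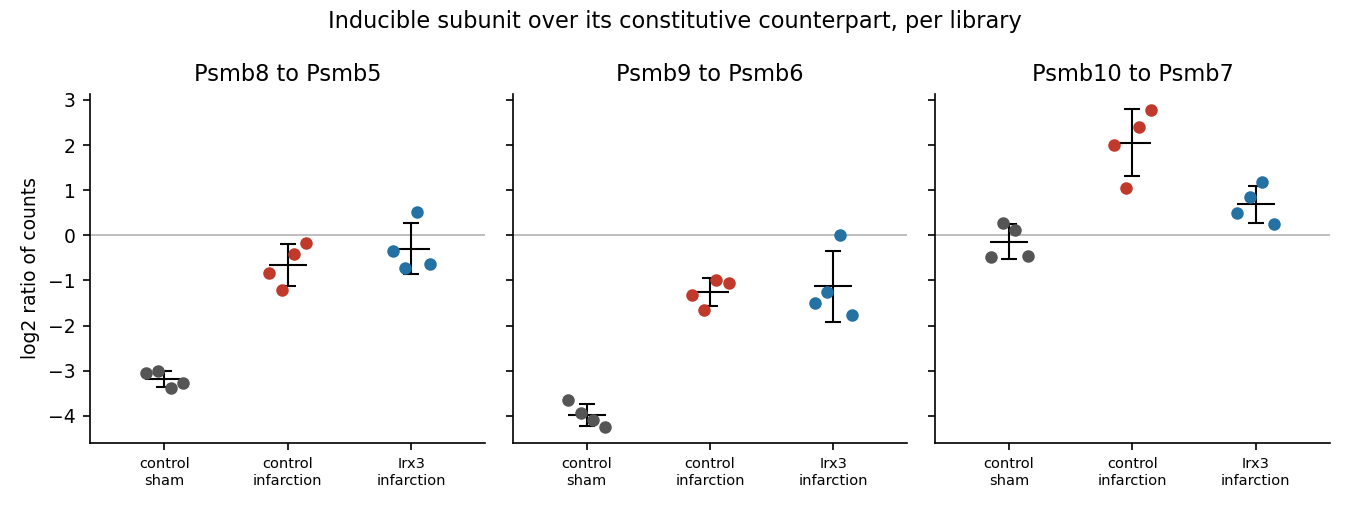
Log2 ratio of read counts (0.5 added to each) of each inducible subunit to its constitutive counterpart, 1 point per library, with bars for the mean ± SD of 4 libraries and a line at equal counts. In all 3 pairs the control infarction libraries lie above the sham libraries without overlap, and replicate 3 of the Irx3 infarction group is the highest library for Psmb8 to Psmb5 and for Psmb9 to Psmb6.

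Among the activators, Psme2 rose and Psme1 was not called. The products of both genes form the PA28 ring, an interferon-inducible cap that opens the core without ubiquitin. Psme2 had 12.5, 15.0, 20.7 and 19.3 CPM in sham and 27.6, 33.7, 35.3 and 22.8 CPM in control infarction hearts, which do not overlap although replicate 4 of the latter came close to the highest sham value. It rose 1.77-fold (log2 fold change 0.82, SE 0.24, adjusted p = 0.0118). Psme1 had 109.5, 130.4, 126 and 120.4 CPM in sham and 107, 125, 136 and 96.9 CPM in control infarction hearts. These overlapped widely, and its log2 fold change was -0.07 (SE 0.19, adjusted p = 0.781). Psme2b is a near-identical copy of Psme2, so how reads were split between the copies is uncertain. Its CPM were 19.9, 20.5, 15.6 and 13.7 in sham and 22.9, 24.5, 29.2 and 20.05 in control infarction hearts, with an overlap of sham replicate 2 and infarction replicate 4 only. The log2 fold change of 0.47 (SE 0.16, adjusted p = 0.0274) was called, but not without sham replicate 3 or 4, or control or Irx3 infarction replicate 1, 2 or 3 (adjusted p 0.0522 to 0.142). Psme3, the nuclear PA28 gamma, and Psme4, the large activator PA200, were not called.

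In all, 5 members were called higher and 9 lower of 49 tested in infarction against sham, and 35 were not called. Over all genes tested 48.7% were called, 26.3% higher and 22.4% lower, so a smaller share of members than of all genes was called. The 5 higher were the 3 immunoproteasome genes, Psme2 and Psme2b. Without the immunoproteasome, 37 of 46 members had a negative log2 fold change and 9 were called lower, and their median was -0.23 beside 0.007 over all genes. The members called lower were spread over the roles: 1 alpha subunit (Psma1), 1 catalytic beta subunit (Psmb7), 2 ATPases (Psmc2 and Psmc3), 4 non-ATPases (Psmd1, Psmd2, Psmd7 and Psmd12) and 1 core chaperone (Psmg1). None of the 4 tested beta subunits outside the catalytic sets, none of the 3 regulatory particle chaperones and not the inhibitor Psmf1 were called. In 14 members the infarcted hearts lay below all sham hearts, beside 22.8% of all genes, and in 4 above, beside 24.5%. The count of 9 moved with single libraries. It was 4 without sham replicate 1 or 3, 3 without sham replicate 4 and 15 without control infarction replicate 2. Without Irx3 infarction replicate 1 it was 17, and without replicate 2 or 3 of that group 16. Over all genes, 6912 of 16205, 6713 of 16169 and 6708 of 16213 were called either way without sham replicates 1, 3 and 4. This was 8513 of 16184 without control infarction replicate 2. Without Irx3 infarction replicates 1, 2 and 3 it was 7903 of 15975, 7738 of 16047 and 7877 of 16057. The Irx3 libraries are in neither group compared. The median log2 fold change over all genes was -0.051, -0.054 and -0.053 without Irx3 infarction replicates 1, 2 and 3. Without Irx3 infarction replicate 4 it was 0.005, with 11 members called lower. It was -0.066 without control infarction replicate 2. Without control infarction replicates 1, 3 and 4 it was -0.041, -0.054 and -0.056, with 8, 13 and 6 members called lower. Why leaving out the Irx3 libraries moved the count was not tested. Without replicate 4 of both infarcted groups 6 were called higher and 5 lower, beside 7274 of 15982 genes called either way. After the GC correction described below, 7 were called higher and 8 lower, beside 52.7% of all genes called, 29.6% higher and 23.1% lower.

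Among the members called lower, the largest falls outside the catalytic set were those of Psmg1, Psmd2 and Psma1. Psme4 had a log2 fold change of -0.66 (SE 0.26) that missed the threshold as counted (adjusted p = 0.0508) and was called lower after GC correction (adjusted p = 0.0158). Psmg1 encodes a chaperone that pairs with PSMG2 to assemble the alpha ring. It had 14.7, 16.4, 18.2 and 18.98 CPM in sham and 10.9, 10.2, 11.8 and 6.20 CPM in control infarction hearts, with no overlap and replicate 4 of the latter the lowest library. The fall was 1.74-fold (log2 fold change -0.80, SE 0.19, adjusted p = 0.00407). Psmd2, the scaffold of the base of the regulatory particle that docks ubiquitin receptors, had 390.1, 397, 403 and 426 CPM in sham and 277, 299, 304 and 234 CPM in control infarction hearts. All infarcted hearts lay far below the sham hearts, and Psmd2 fell 1.45-fold (log2 fold change -0.54, SE 0.14, adjusted p = 0.00747). Psma1, an alpha ring subunit, had 69.6, 66.8, 65.9 and 74.5 CPM in sham and 41.5, 61.0, 58.0 and 31.5 CPM in control infarction hearts, again apart, with replicates 1 and 4 lowest. Its log2 fold change was -0.53 (SE 0.21, adjusted p = 0.0494), and the call was lost without any 1 of the sham libraries or without control infarction replicate 1 or 4 (adjusted p 0.0676 to 0.106).

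Markers of leukocytes, fibroblasts and cardiomyocytes also changed after infarction, beside 26.3% of all genes called higher and 22.4% lower. All 10 tested leukocyte markers of 11 listed rose after infarction, and their summed level was 142 to 200.3 CPM in sham and 519 to 1282 CPM in control infarction hearts. All 6 fibroblast markers rose, from a sum of 549 to 668 CPM to one of 8367 to 25535 CPM. Of 8 cardiomyocyte markers 6 fell, from a sum of 89604 to 101832 CPM in sham to 25169 to 60432 CPM. Most endothelial and smooth muscle markers were not called. Of 5 endothelial markers 1 was called lower and 4 were not called. Of 5 smooth muscle and pericyte markers 1 was called higher, 1 lower and 3 were not called. No listed marker was at 0 in all libraries of a group. Control infarction replicate 2, the lowest of that group for Psmb8, Psmb9 and Psmb10, had the lowest leukocyte and fibroblast sums of its group and the highest cardiomyocyte sum. Replicate 4, the lowest for Psmb7 and Psmg1, had the highest leukocyte and fibroblast sums and the lowest cardiomyocyte sum. It was not the highest for Psmb8, Psmb9 or Psmb10, at 57.3, 45.7 and 140 CPM. Replicate 3 was, at 64.5, 57.0 and 234 CPM, with a leukocyte sum of 639 CPM beside 1282 CPM in replicate 4. The part of cell composition in the member changes was not tested.

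Genes around the immunoproteasome rose with it, beside 26.3% of all genes called higher. Of 9 genes of peptide loading and MHC class I, 8 were called higher after infarction, among them B2m, the MHC class I light chain (log2 fold change 2.46, SE 0.19), and the heavy chains H2-K1 (2.63, SE 0.23) and H2-D1 (2.29, SE 0.23). All 4 tested interferon regulators of 5 listed rose. Nlrc5, the transactivator of MHC class I genes, rose by 2.95 (SE 0.44) and Socs1, a feedback inhibitor of the pathway, by 2.22 (SE 0.43) on the log2 scale. Ifng itself did not pass the filter.

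On the ubiquitin side, genes fell or were not called, beside 22.4% of all genes called lower. Of 10 ubiquitin ligases of striated muscle, 6 fell and none rose. Fbxo32, which encodes atrogin-1, had 372, 368, 421 and 469 CPM in sham and 161, 157, 163 and 115 CPM in control infarction hearts, far apart (log2 fold change -1.45, SE 0.15, adjusted p = 2.52e-05). Trim63, which encodes MuRF1, changed by -1.24 (SE 0.25) and Asb2 by -1.03 (SE 0.23). Among 9 proteasome-associated genes found of 10 listed, 3 fell: Ecpas, a scaffold that binds the 26S particle (-0.80, SE 0.21), Zfand5 (-0.65, SE 0.19) and Akirin2, which guides proteasomes into the nucleus (-0.45, SE 0.15), the last not called without sham replicate 1 or 4 (adjusted p 0.0571 to 0.0830). Of 9 shuttle receptor and unfoldase genes, 4 fell, among them Ubqln4 (-0.82, SE 0.16). Nfe2l1, which encodes NRF1, the factor that raises proteasome genes when the proteasome is short, was the only 1 of 4 genes of its route that was called, at -0.47 (SE 0.15, adjusted p = 0.0182), and missed the threshold without sham replicate 3 (adjusted p = 0.0508). None of the 6 ubiquitin and E1 genes was called.

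**Figure D3:**
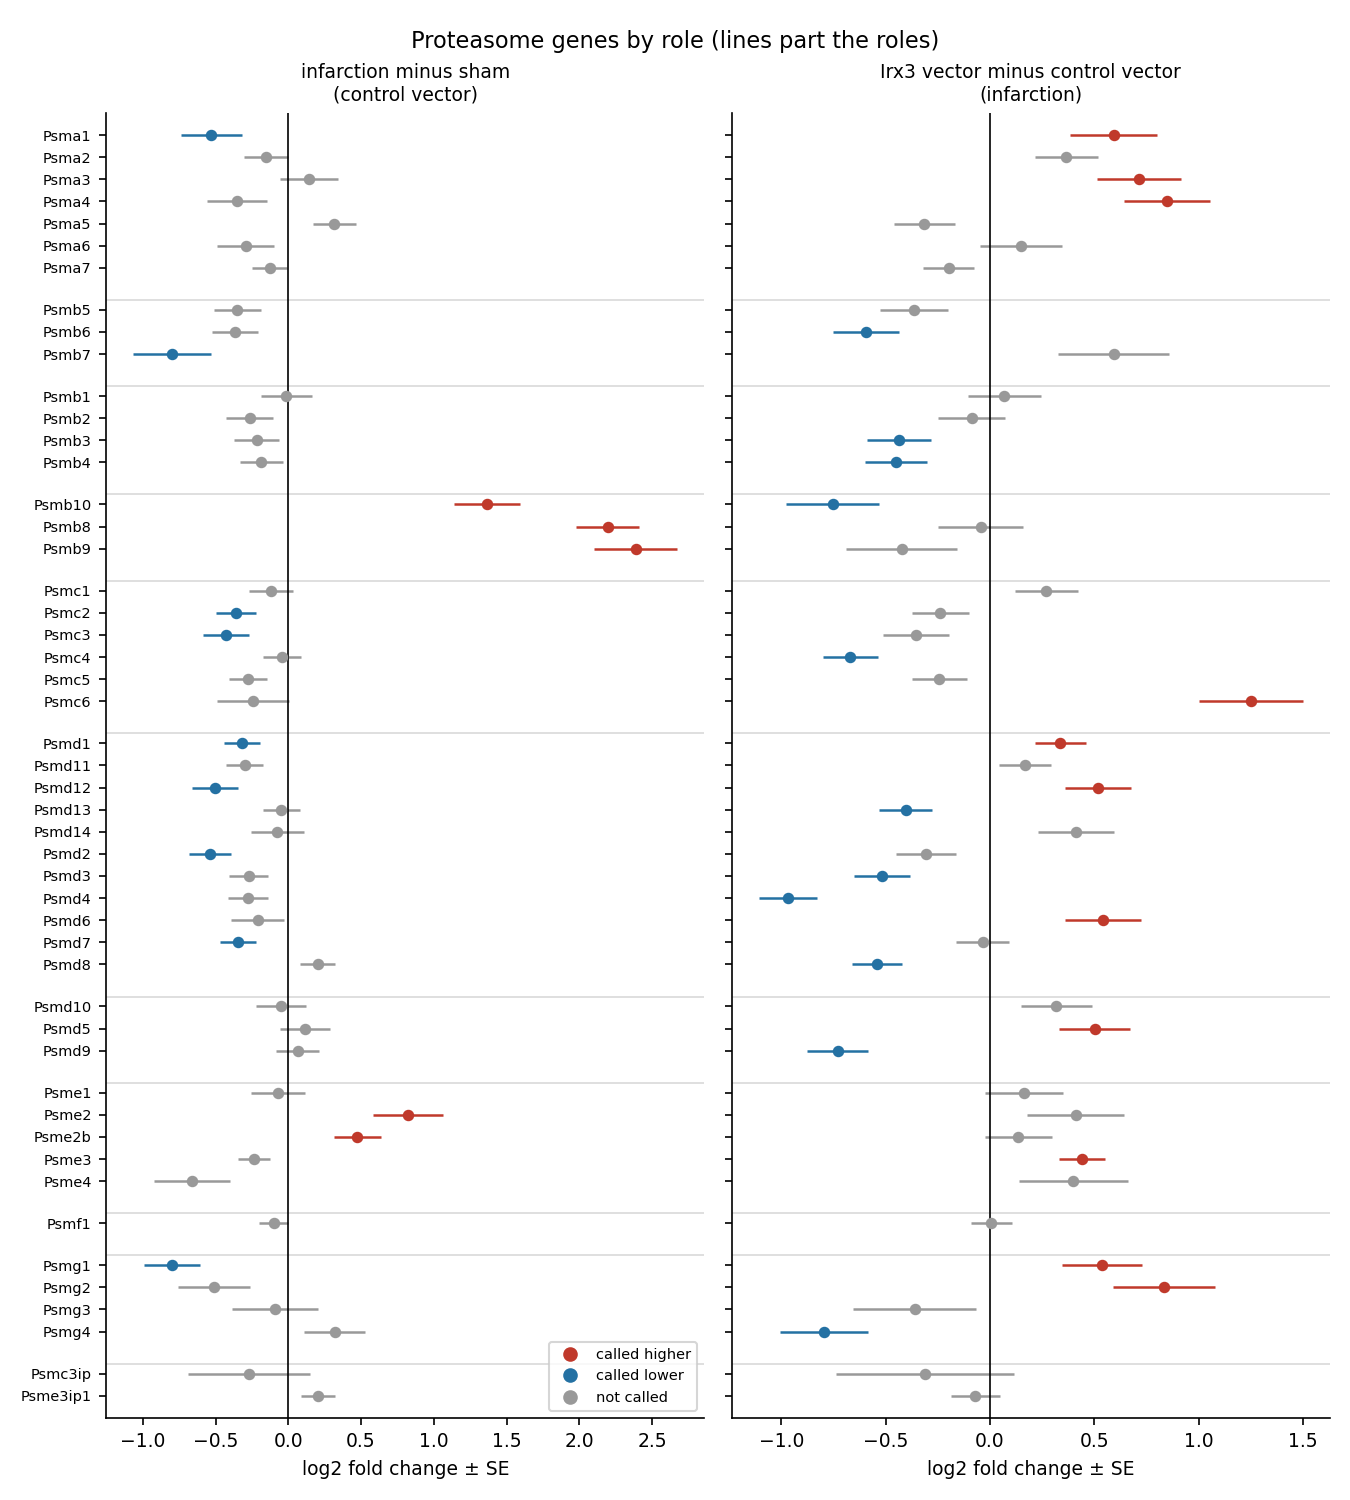
Log2 fold change ± SE of the 49 tested members in infarction against sham (left) and in Irx3 vector against control vector after infarction (right), from the edgeR fit over 4 libraries a group, grouped by role in the order alpha, catalytic beta, other beta, immunoproteasome, ATPase, non-ATPase, regulatory chaperone, activator, inhibitor, core chaperone and no subunit. On the left Psmb8, Psmb9 and Psmb10 stand apart at 2.19, 2.39 and 1.37 while 37 members lie below 0, and on the right 11 members are called higher and 11 lower.

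With the Irx3 vector, 11 members were called higher and 11 lower than with the control vector among infarcted hearts, and 27 were not called. Over all genes 49.3% were called, 25.2% higher and 24.1% lower, so the members' shares were near the background. The median of the members was -0.04. Calls in opposite directions occurred within the same ring or particle. The ATPase Psmc6 was higher and the ATPase Psmc4 lower, and the alpha subunits Psma1, Psma3 and Psma4 were higher while Psmb6, Psmb3 and Psmb4 of the beta ring were lower. Of the regulatory particle lid and base, Psmd1, Psmd6 and Psmd12 were higher and Psmd3, Psmd4, Psmd8 and Psmd13 lower. Psmd5 was higher and Psmd9 lower among the chaperones of the regulatory particle, Psmg1 and Psmg2 higher and Psmg4 lower among those of the core, and Psme3 higher among the activators. In 7 members the Irx3 infarction libraries lay above all control infarction libraries, beside 22.1% of all genes, and in 8 below, beside 18.9%. The count called higher was 7 without control infarction replicate 1, 6 without control infarction replicate 4 and 5 without Irx3 infarction replicate 4. Over all genes these fits called 6765 of 16125, 7219 of 16084 and 7355 of 16155 either way. Without replicate 4 of both infarcted groups, 4 were called higher and 19 lower, beside 7303 of 15982 genes called either way. With the mitochondrially encoded genes removed both counts were 11.

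These changes were ordered by the GC content of the transcripts. Spearman's correlation of the log2 fold change with transcript GC content over the 49 members was -0.79, beside -0.66 over 15392 genes with a GC content, given as a description since these values share the same 8 libraries. Among the 16 members with the lowest GC content (37.0% to 47.9%), 9 were called higher and 0 lower, and their median log2 fold change was 0.46. Among the 16 with the highest (52.8% to 58.3%), 0 were called higher and 9 lower, with a median of -0.43. In the 17 between, 2 were called each way. When the trend of each library with GC content was taken out over all genes, the medians became -0.12, -0.03 and -0.01 from the lowest to the highest group. The corrected fit called 4 members higher and 6 lower, beside 25.5% of all genes called, 13.2% higher and 12.2% lower, and 5 calls were made in both fits in the same direction: Psmc4, Psmd4, Psmd9, Psme3 and Psmg1. The sign turned in 21 of the 49 members, 6 of them called as counted (Psma1, Psma3, Psmc6, Psmd12, Psmd3 and Psmd5), none of which was called after correction. The correction removes any real difference that runs with GC content along with any other, and these cannot be told apart. In infarction against sham, 12 of the 14 calls were also made after correction. Spearman's correlation with GC content over the members there was 0.25 as counted and 0.19 after correction. Between vectors the corrected value was 0.24, of opposite sign to that as counted. In Irx3 infarction against sham it was -0.46 as counted and 0.38 after correction. Over all genes the corrected values of these 2 comparisons were -0.006 and -0.002. Between vectors the corrected fit called 0 higher and 3 lower of the 16 lowest-GC members, and 2 each way of the 16 highest.

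**Figure D4:**
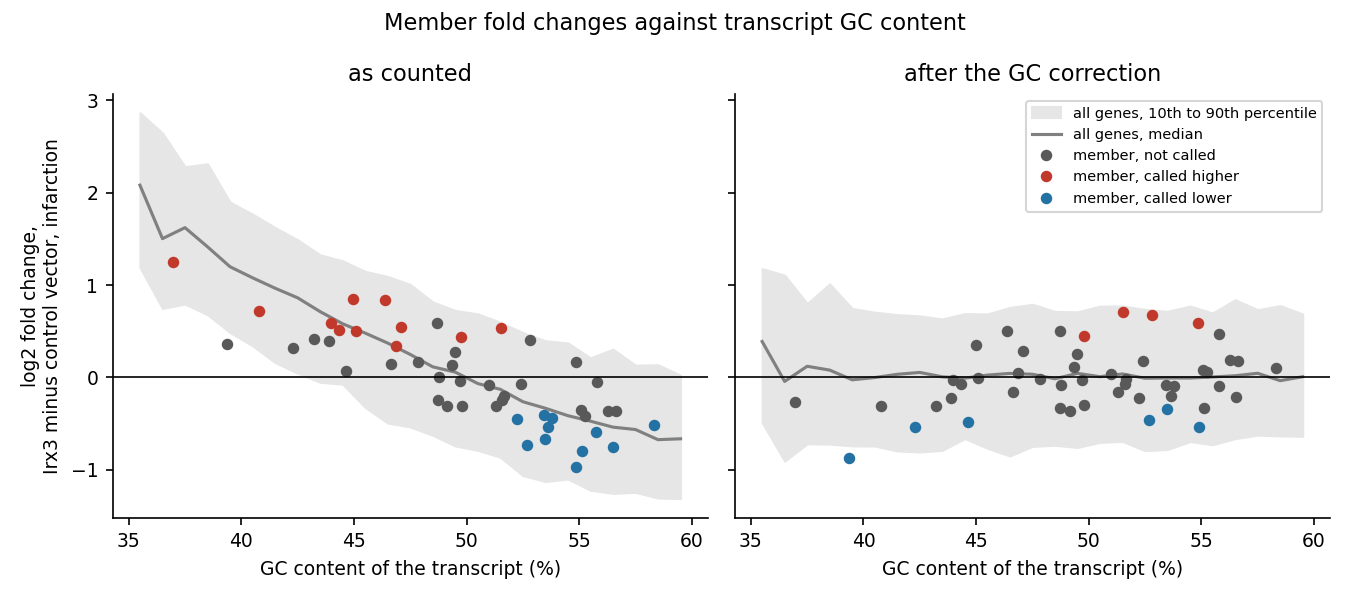
Log2 fold change of each tested member in Irx3 vector against control vector after infarction over the GC content of its transcript in percent, as counted (left) and after the GC correction (right), with the median and the 10th to 90th percentile of all genes in 1% steps of GC content. As counted, the members follow the falling line of all genes, and called members are higher at low and lower at high GC content. After correction the line is flat and 10 members are called.

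Of the members named by size, Psmc6, an ATPase with a transcript GC content of 37.0%, had the largest rise. It stood at 27.4, 44.1, 40.7 and 18.5 CPM in control infarction and 64.6, 72.7, 71.8 and 101 CPM in Irx3 infarction hearts, without overlap. Its log2 fold change of 1.25 (SE 0.25, adjusted p = 0.00128) was -0.27 (SE 0.14) after GC correction. Psma4, an alpha subunit, had 31.6, 49.0, 41.0 and 22.7 CPM in control infarction and 59.1, 60.3, 60.9 and 79.8 CPM in Irx3 infarction hearts, also apart. It changed by 0.85 (SE 0.21, adjusted p = 0.00422) as counted and 0.35 (SE 0.15, not called) after correction. Psmg2, the partner of PSMG1, had 7.46, 12.3, 11.3 and 5.22 CPM in control infarction and 12.8, 15.7, 14.5 and 21.7 CPM in Irx3 infarction hearts. The groups were just apart, with a log2 fold change of 0.83 (SE 0.25, adjusted p = 0.0126) that became 0.50 (SE 0.21) and uncalled after correction. Psma1 read 64.7, 62.2, 61.6 and 101 CPM in Irx3 infarction hearts, where replicate 4 stood well above the others. Its log2 fold change of 0.59 (SE 0.21, adjusted p = 0.03) was lost without control infarction replicate 1 or 4 or Irx3 infarction replicate 4 (adjusted p 0.0612 to 0.107) and was -0.03 after correction.

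Psmd4 had the largest fall and was also called after correction. It encodes the ubiquitin receptor of the regulatory particle also known as RPN10. Its CPM were 164, 129.9, 163 and 142 in control infarction and 61.8, 90.2, 72.8 and 81.3 in Irx3 infarction hearts. All Irx3 libraries lay far below all control ones, and the fall was 1.96-fold (log2 fold change -0.97, SE 0.14, adjusted p = 1.49e-04), and -0.53 (SE 0.11, adjusted p = 0.00455) after correction. Psmd9, a chaperone of the ATPase ring, had 33.3, 23.4, 26.6 and 34.7 CPM in control infarction and 15.5, 19.1, 16.8 and 19.8 CPM in Irx3 infarction hearts, without overlap. It fell by 0.73 (SE 0.15, adjusted p = 0.00135) on the log2 scale as counted, and was at -0.46 (SE 0.12, adjusted p = 0.0158) after correction. Psmg4 had 13.2, 9.15, 10.2 and 10.8 CPM in control infarction and 4.29, 5.94, 6.81 and 8.06 CPM in Irx3 infarction hearts. The log2 fold change of this core chaperone gene was -0.80 (SE 0.21, adjusted p = 0.00727) as counted and -0.33 (SE 0.19, not called) after correction.

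Psmc4, Psme3 and Psmg1 are named because they were called in both fits, a choice made after their values were seen for the first 2. Psmc4, an ATPase, had 103, 86.5, 103 and 99.9 CPM in control infarction and 58.0, 65.4, 49.6 and 73.8 CPM in Irx3 infarction hearts, with no overlap, and fell by 0.67 (SE 0.13, adjusted p = 0.00114) on the log2 scale, -0.34 (SE 0.11) after correction. Psme3 had 45.6, 52.1, 44.1 and 40.9 CPM in control infarction and 53.8, 64.4, 60.2 and 69.5 CPM in Irx3 infarction hearts. These were apart by a narrow margin, and the rise was 0.44 (SE 0.11, adjusted p = 0.00535) as counted and 0.45 (SE 0.09) after correction. Psmg1, which fell after infarction, read 12.6, 14.5, 12.6 and 17.3 CPM in Irx3 infarction hearts, all above the control infarction hearts. The difference of 0.54 (SE 0.19, adjusted p = 0.0329) was 0.71 (SE 0.18, adjusted p = 0.013) after correction. As counted it was not called without control infarction replicate 4 or Irx3 infarction replicate 2 or 4 (adjusted p 0.0548 to 0.0934).

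The immunoproteasome genes were still called higher than in sham with the Irx3 vector, as given below. As counted, Psmb10 was lower than with the control vector. Psmb8 had 38.3, 42.8, 65.2 and 49.6 CPM in Irx3 infarction hearts, which overlapped the control vector values throughout. Its log2 fold change was -0.05 (SE 0.20, adjusted p = 0.869), and 0.47 (SE 0.20, adjusted p = 0.0981) after GC correction. Psmb9 had 21.1, 30.9, 56.7 and 27.1 CPM, of which replicate 3 lay far above the other 3. The log2 fold change of -0.42 (SE 0.27, adjusted p = 0.204) was not called with all libraries, became -0.78 (adjusted p = 0.00889) without Irx3 infarction replicate 3, and was 0.06 (SE 0.27) after correction. Psmb10 had 61.8, 109.7, 109 and 101 CPM in Irx3 infarction hearts, all below the lowest control infarction heart, with replicate 1 the lowest. It was 1.69-fold lower (log2 fold change -0.75, SE 0.22, adjusted p = 0.0132), and not called after correction (-0.21, SE 0.21, adjusted p = 0.509). Irx3 infarction replicate 3 was also the highest of its group for Tap1, picked after its values were seen (66.7, 97.8, 247 and 78.3 CPM in Irx3 infarction replicates 1 to 4).

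For the constitutive partners, Psmb5 had 48.8, 70.6, 45.8 and 77.5 CPM in Irx3 infarction hearts, with replicates 1 and 3 below all control infarction hearts and the others among them. The log2 fold change of -0.36 (SE 0.16, adjusted p = 0.0788) was not called, and was called without control infarction replicate 4 (adjusted p = 0.0396) or Irx3 infarction replicate 4 (adjusted p = 0.0186). Psmb6 had 59.6, 74.4, 56.6 and 92.7 CPM, all below the control infarction hearts, and fell by 0.59 (SE 0.16, adjusted p = 0.00759) on the log2 scale, -0.10 (SE 0.14, not called) after correction. Psmb7 had 43.9, 61.2, 47.9 and 85.7 CPM, overlapping the control infarction hearts, with a log2 fold change of 0.59 (SE 0.27, adjusted p = 0.08). It was called without control infarction replicate 2 (adjusted p = 0.0293) or Irx3 infarction replicate 1 (adjusted p = 0.0463). Psme1 read 92.0, 119, 121 and 188 CPM and Psme2 23.4, 44.2, 53.1 and 37.9 CPM in Irx3 infarction hearts. Both overlapped the control infarction hearts and neither was called as counted (log2 fold changes 0.16, SE 0.19, and 0.41, SE 0.23), while both were called higher after correction (0.59, SE 0.19, and 0.68, SE 0.23). Psme2 was called as counted without Irx3 infarction replicate 1 (adjusted p = 0.0251).

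The log2 ratio of Psmb8 to Psmb5 in Irx3 infarction replicates 1 to 4 was -0.35, -0.72, 0.51 and -0.64, which overlaps the control infarction values, a difference of means of 0.36 (two-sided exact permutation p = 0.371, adjusted p = 0.418). For Psmb9 to Psmb6 it was -1.49, -1.26, 0.001 and -1.77, a difference of 0.12 (exact permutation p = 0.886, adjusted p = 0.886). The Psmb10 to Psmb7 ratio was 0.49, 0.84, 1.18 and 0.24, below the control infarction hearts except for an overlap of replicate 3 with control infarction replicate 2. That difference was -1.37 (exact permutation p = 0.0571, adjusted p = 0.0735) and -0.72 (p = 0.114) after GC correction. By length, Psmb8 made up 31.4% ± 8.72 (SD, n = 4), Psmb9 22.2% ± 10.2 and Psmb10 58.7% ± 6.81 of their pairs in Irx3 infarction hearts.

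Of the wider pathway, Ubb was lower with the Irx3 vector. Ubb encodes a chain of ubiquitin repeats and had 588, 849, 887 and 649 CPM in sham, 893, 457, 663 and 1104 CPM in control infarction and 254, 249, 266 and 260.1 CPM in Irx3 infarction hearts. The last 4 values lay close together and below each of the other 8. The fall against the control vector was 3.03-fold (log2 fold change -1.60, SE 0.24, adjusted p = 2.28e-04), and -1.20 (SE 0.21, adjusted p = 0.0018) after GC correction. Its repeats are near-identical to other ubiquitin sequences, so how reads were assigned is uncertain. Of the 6 genes on the ubiquitin and E1 list, 3 were called lower and 1 higher. The 1 higher was Uba6, an E1 enzyme (1.65, SE 0.24), which was not called after correction (0.16, SE 0.16).

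Among the 9 proteasome-associated genes, 6 were called higher and 2 lower with the Irx3 vector, and after correction 1 was called higher and 3 lower. The background for this and each other list in this comparison was 49.3% of all genes called as counted and 25.5% after correction. Adrm1, the ubiquitin receptor RPN13, had 157, 109.5, 125 and 136 CPM in control infarction and 56.7, 76.4, 55.2 and 72.4 CPM in Irx3 infarction hearts, without overlap. It fell 2.02-fold (log2 fold change -1.02, SE 0.15, adjusted p = 1.74e-04), and was at -0.35 (SE 0.10) after correction. Sem1, the small lid subunit, had 58.4, 51.2, 70.1 and 62.6 CPM in control infarction and 31.4, 33.3, 27.7 and 41.8 CPM in Irx3 infarction hearts. Its log2 fold change was -0.85 (SE 0.14, adjusted p = 3.11e-04) and -2.43 (SE 0.23) after correction, at a GC content of 37.3%. Zfand5 changed by 1.40 (SE 0.19) as counted and -0.14 (SE 0.10) after correction. Of the 10 muscle ubiquitin ligases 2 were called each way, Wwp1 (1.41, SE 0.22) and Fbxo30 (0.91, SE 0.18) higher and Trim54 (-1.14, SE 0.24) among the lower. Corrected values were 0.24 (SE 0.11) for Wwp1, -0.46 (SE 0.13) for Fbxo30, the opposite sign, and -0.49 (SE 0.23) for Trim54. Of 4 genes of the NRF1 route, Ngly1 was called higher (0.94, SE 0.20) and Nfe2l1 lower (-0.53, SE 0.15), and neither after correction (0.14, SE 0.13, and -0.13, SE 0.14). None of the 4 tested interferon regulators was called in edgeR as counted, though all 4 log2 fold changes were positive (median 0.54). At an unadjusted p under 0.05 0 of them passed, and 1 was called higher after correction. The summed level of the 5 listed was 117, 172, 440 and 151 CPM in Irx3 infarction replicates 1 to 4. In control infarction libraries it was 147 to 199 CPM. Of the 10 tested leukocyte markers 2 were called higher and 4 lower with the Irx3 vector, 1 and 0 after correction, and their sums of 344 to 655 CPM in Irx3 infarction hearts overlapped those of the control vector. All 5 endothelial markers were called, 2 higher and 3 lower (1 each after correction). Of 6 fibroblast markers 1 was called lower and 5 had a negative log2 fold change as counted. After correction 2 were called lower, and the 6 log2 fold changes ran from -1.21 to -0.32. Fibroblast marker sums were 2569 to 16406 CPM beside 8367 to 25535 CPM. Of 8 cardiomyocyte markers 1 was called each way (1 higher and 0 lower after correction), with sums of 31443 to 52812 CPM beside 25169 to 60432 CPM. Of 5 smooth muscle and pericyte markers 1 was called higher and 2 lower (0 and 1 after correction). The part of cell composition in the member differences between vectors was not tested.

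Set against sham, Irx3 infarction hearts had 9 members called higher and 16 lower (8 and 21 without replicate 4 of both infarcted groups), beside 62.9% of all genes called, 35.2% higher and 27.7% lower. Psmb8 was 4.44-fold higher (log2 fold change 2.15, SE 0.21) and Psmb9 3.90-fold higher (1.96, SE 0.28), each without overlap with sham. Psmb10 was 1.53-fold higher (0.61, SE 0.22, adjusted p = 0.0282), overlapped sham at Irx3 infarction replicate 1, and was not called without sham replicate 1, 3 or 4, control infarction replicate 1 or Irx3 infarction replicate 2, 3 or 4 (adjusted p 0.0506 to 0.0952), while after GC correction it was at 1.18 (SE 0.22, adjusted p = 7.56e-04). Psme2 was 2.35-fold higher (1.23, SE 0.24). Psmb6 was 1.94-fold lower (-0.96, SE 0.16) and Psmb5 1.64-fold lower (-0.71, SE 0.16), the latter not called after GC correction (-0.16, SE 0.16). Psmb7 was not called (-0.20, SE 0.26). The ratio to the constitutive partner was 2.87 higher on the log2 scale for Psmb8 and 2.85 for Psmb9 (each exact permutation p = 0.0286, adjusted p = 0.0514), and 0.83 for Psmb10 (exact permutation p = 0.0571, adjusted p = 0.0735). After correction 8 members were called higher and 15 lower, beside 53.6% of all genes called, 31.8% higher and 21.8% lower. Only 13 calls were made in both fits, 5 higher and 8 lower, while 12 were made only as counted and 10 only after correction. Psmc6 was called higher as counted (1.01, SE 0.25) and was at -0.33 (SE 0.14, not called) after correction. In 8 members the Irx3 infarction libraries lay above all sham libraries, beside 33.2% of all genes, and in 16 below, beside 27.6%.

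**Figure D5:**
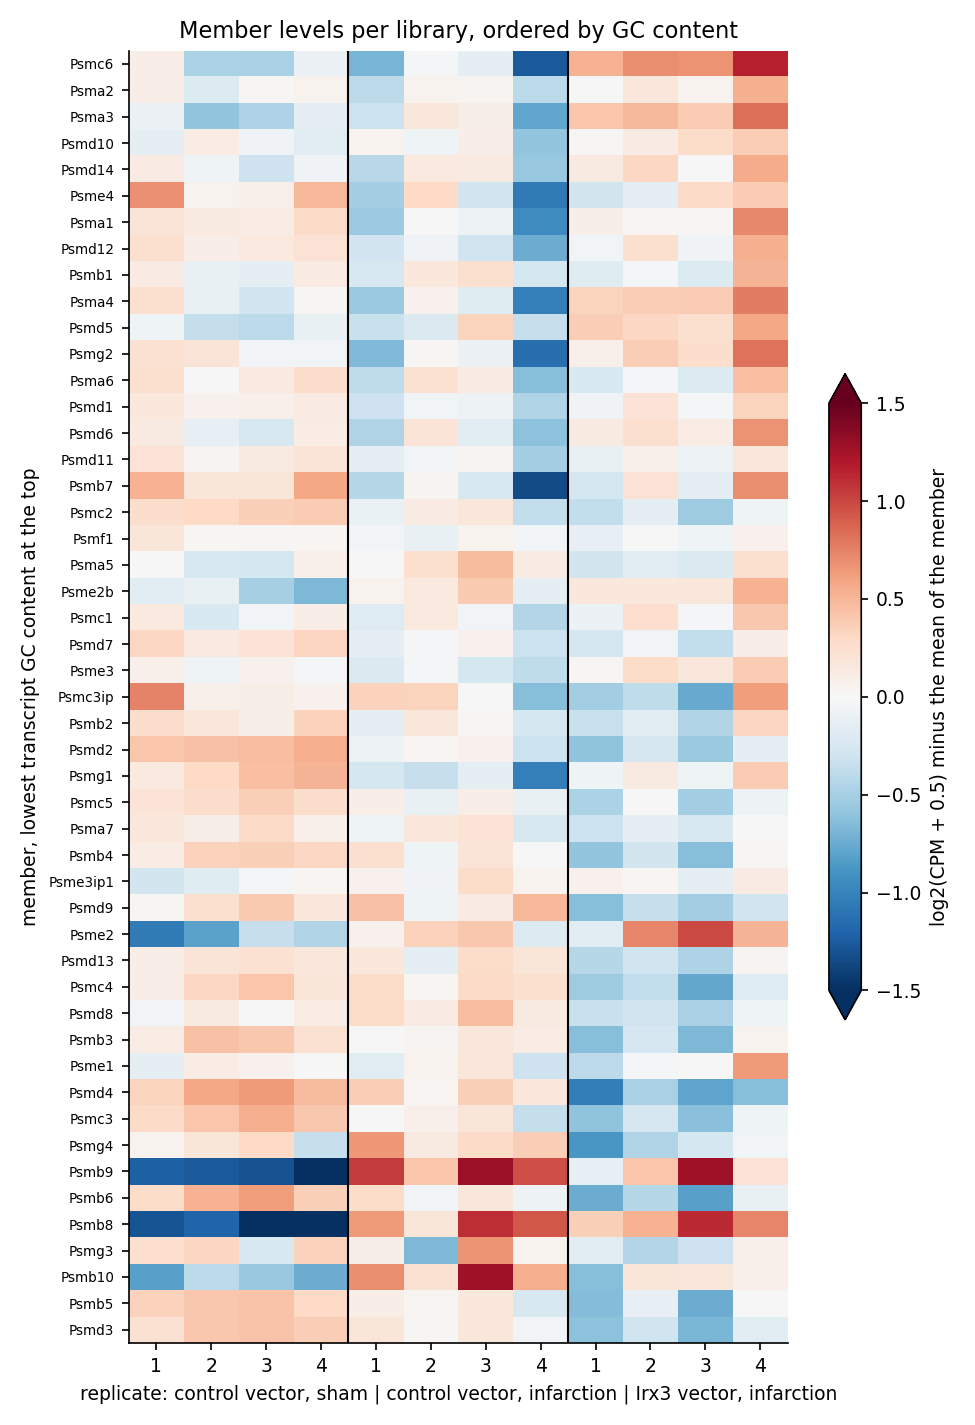
Level of the 49 tested members in each of the 12 libraries as log2(CPM + 0.5) minus the mean of the member over all libraries, with members ordered by transcript GC content and colours limited to 1.5 either way. Psmb8 and Psmb9 are lowest in sham, control infarction replicate 4 is low and Irx3 infarction replicate 4 high over most low-GC members at the top, and Irx3 infarction replicate 3 is the lowest library in 8 of the 16 members with the highest GC content.

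Levels between genes were compared per kilobase of transcript in sham. The most abundant members were Psmb6 at 172 CPM per kilobase, Psmc3 at 152, Psmd4 at 136, Psmd2 at 136 and Psmb4 at 129. The 7 assembly chaperones were lower, from 2.83 for Psmd5 to 16.3 for Psmg1, as was the inhibitor Psmf1 at 7.08. The alpha subunits, which enter the particle in equal number, ranged from 8.36 for Psma3 to 82.4 for Psma7 among the 7 tested. Psmb8 was at 6.77 and Psmb9 at 6.43 beside 111 for Psmb5, while Psmb10 at 47.5 was near Psmb7 at 59.2. In control infarction hearts Psmb10 reached 123, above Psmb5 at 86.8 on the same per-length scale. Lengths are those of 1 transcript per gene, and a different transcript in the heart would move these values. Psmf1, picked after its values were seen, varied little: its CPM were 29.3, 26.3, 26.1 and 26.2 in sham, 25.1, 23.8, 26.7 and 25.0 in control infarction and 23.7, 25.7, 24.6 and 27.1 in Irx3 infarction hearts, and it was called in no comparison, as counted or corrected.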

How the data were processed

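Poly(A) RNA of mouse left ventricle was sequenced in 12 libraries. The authors deposited raw read counts per gene; fastp and the GRCm39 (mm39) build are named per the submitters' processing notes, while aligner, counter, annotation release and strand setting were not given in the sources used here. Groups came from the sample labels. Counts were scaled by TMM, filtered with filterByExpr and tested with edgeR 4.0.16 (R 4.3.3, limma 3.58.1), robust quasi-likelihood, 1 term per group over all 12 libraries with 9 residual degrees of freedom, and Benjamini-Hochberg adjustment over 15742 genes. CPM are TMM-scaled. Total counts of 13352604 to 19236721 per library set the precision, and no libraries agreed within counting noise (lowest chi-square per degree of freedom 7.31).

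The GC correction fitted in each library a natural spline (6 df) of the deviation of log2 CPM on transcript GC content (genes with mean log2 CPM of at least 2, 3 rounds, residuals beyond 2.5 MAD left out) and entered it as an offset. GC content and length were those of transcripts in GENCODE M21 (GRCm38), joined on gene symbols for 97.8% of genes tested and all 49 tested members. Ratios of paired subunits used counts with 0.5 added and two-sided exact permutation tests, adjusted over 9. Alternatives were RLE and upper-quartile factors, other filters, only the groups compared, a replicate block, DESeq2 1.42.0, glmTreat at 1.2-fold, mitochondrially encoded genes removed, each library left out, and replicate 4 of both infarcted groups left out; the GC correction with the median transcript was added after seeing the data. Scripts were tested on simulated data. Some genes of the pathway lists are counted but not reported here by name.

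Library values were given for the catalytic subunits, Psme1, Psme2 and the 3 largest called rises and falls among other members in each of the first 2 comparisons; of the pathway lists at most 3 called genes with the smallest p per comparison were named, and exceptions are stated. Members and lists were chosen with earlier results of these data known.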

Additional observations from a re-analysis of the deposited data

Results flagged for a closer look

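In 3 of 63 groups of 4 libraries examined, 1 library lay far from the others by Dixon's criterion, which chance does in about 1 of 20 groups. All 3 were Irx3 infarction replicate 4. Psme2b stood at 31.9 CPM there, with the next library of the group at 25.0 CPM. Psma1 stood at 101.2 CPM, with the next at 64.7 CPM. Psma4 stood at 79.8 CPM, with the next at 60.9 CPM.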

How the results depend on the processing

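Counts of called members moved over 1.5 times in the following settings. In infarction against sham, the 9 lower calls became 3 with no filter, 3 with the replicate block, 5 without replicate 4 of both infarcted groups and 3 against a fold change of 1.2, and the 5 higher calls became 9 with the GC correction and without both replicates 4. Between vectors, the 11 higher calls became 6 with only the 2 groups compared, 6 with the replicate block, 4 with the GC correction, 3 with the median-transcript GC correction, 4 without both replicates 4, 2 with both of these together and 4 against a fold change of 1.2. The 11 lower calls became 6, 19 and 17 with the GC correction, without both replicates 4, and with both together. In Irx3 infarction against sham, the 16 lower calls became 27 with both together. The cause was not tested. Over all genes, the fits without both replicates 4 called 7274, 7303 and 10762 of 15982 in the 3 comparisons, in the order above. With the GC correction as well they called 7878, 3665 and 9647. In the first 2 comparisons the replicate block called 6624 and 6679 of 15742 genes, and the test against a fold change of 1.2 called 6184 and 6207. No filter gave 7176 of 31081 in infarction against sham, and only the 2 groups compared 6622 of 15373 between vectors. Leaving out 1 library gave 4 to 5 higher and 3 to 17 lower calls in infarction against sham. It gave 5 to 14 and 8 to 15 between vectors, and 7 to 9 and 15 to 19 in Irx3 infarction against sham. Of 15975 to 16213 genes tested, these fits called 6708 to 8513, 6765 to 8353 and 9007 to 10586 either way in the 3 comparisons. With RLE or upper-quartile factors, DESeq2, the CPM filter or mitochondrially encoded genes removed, all 6 counts stayed within 1.5 times.

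Residuals of same-numbered libraries correlated at -0.60 to 0.18, 2 of 12 above 0.1, and 0 libraries matched their own number best. The labels do not say what a replicate number marks, and with 4 libraries a group these values cannot exclude a pairing. After GC correction the 6 ratio differences against sham were 2.53, 2.74 and 2.11 in control and 2.83, 2.82 and 1.39 in Irx3 infarction, in the order of Psmb8, Psmb9 and Psmb10. Each had the smallest exact permutation p possible, 0.0286, adjusted to 0.0429. As counted, all but the Psmb10 ratio in Irx3 infarction had this same p of 0.0286, adjusted to 0.0514. The adjusted value was lower after correction only because another of the 9 tests reached the smallest p.

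With the GC correction the sign turned in 3 of 49 tested members in infarction against sham, 21 between vectors and 12 in Irx3 infarction against sham, of which 0, 6 and 3 were called as counted. For the genes named with values, signs turned as follows, as log2 fold changes, with only 8 of these genes followed in the third comparison. With the GC correction, Psmc4 became 0.0094 in infarction against sham. Between vectors Psmb8 became 0.47, Psmb9 0.059, Psmb5 0.18, Psma1 -0.032, Psmc6 -0.27, Fbxo30 -0.46, B2m -0.33, Zfand5 -0.14 and Nploc4 0.0020. With the median-transcript correction, Psmc4 was 0.0034 against sham, and between vectors Psmb8 was 0.45, Psmb9 0.036, Psmb5 0.18, Psma1 -0.025, Psmc6 -0.30, Fbxo30 -0.12 and B2m -0.40. Without both replicates 4, Psme1 was 0.0084 and Psmd9 -0.022 against sham. Between vectors Psmb8 was 0.011, Psme1 -0.15 and Psme2b -0.046, and Psme1 was -0.14 in Irx3 infarction against sham. With both changes together, Psme1 was 0.085, Psmc6 0.032 and Psmc4 0.025 against sham. Between vectors Psmb8 was 0.49, Psmb9 0.12, Psme2b -0.041, Psma1 -0.33, Psmc6 -0.46, Fbxo30 -0.45, Erap1 -0.019, B2m -0.28 and Zfand5 -0.25. With upper-quartile factors Psmb8 was 0.00022 between vectors. Leaving out 1 library spanned -0.085 to 0.13 for Psmd9 and -0.13 to 0.010 for Psmc4 against sham. Between vectors it spanned -0.21 to 0.096 for Psmb8, -0.070 to 0.30 for Psme1 and -0.26 to 0.34 for the Psmb9 to Psmb6 ratio, and -0.14 to 0.17 for Psme1 in Irx3 infarction against sham.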

Other observations

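Between vectors, some genes of MHC class I and of ubiquitin shuttling were called as counted. Over all genes 49.3% were called as counted and 25.5% after correction, and neither list had a larger share called. Of 9 genes of peptide loading and MHC class I, 3 were called higher with the Irx3 vector and 1 lower, and after correction 1 and 0. Pdia3, a thiol isomerase of the loading complex, was higher in both fits (0.91, SE 0.16, as counted and 0.61, SE 0.17, corrected). B2m was at 0.69 (SE 0.18) as counted and -0.33 (SE 0.17, not called) corrected. Of 9 shuttle receptor and unfoldase genes 2 were called each way, and after correction 1 higher and 0 lower. Ubqln1, a shuttle for ubiquitinated proteins, was that one (0.50, SE 0.10, as counted and 0.32, SE 0.09, corrected).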
